A study of Mus musculus with 6 samples.

Results

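Most Prss genes encode serine proteases of the trypsin fold, and 34 of the 36652 rows of the deposited table carry a Symbol of Prss followed by a digit. One of these rows, Prss23os, is annotated as an antisense transcript and not as a protease. RNA of whole mouse testis, taken at an age of 8 weeks, was sequenced in 3 libraries labelled Ccdc117ko and 3 labelled WT. The study's title ties loss of Ccdc117, a coiled-coil gene, to androgen excess and to sperm formation. The labels give no strain, no second allele and no description of how Ccdc117 was disrupted, and they do not say whether each replicate is its own mouse. The p-values therefore cover only sample-to-sample spread, which may be technical.

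Trypsin-like proteases cut after basic residues by means of a catalytic triad with an active serine, and are made as inactive precursors. Many mouse Prss genes are expressed almost solely in male germ cells, some in meiotic spermatocytes and others in spermatids, whose products reach the acrosome or the sperm surface. Several Prss proteins of sperm have lost catalytic residues yet are needed for fertility. Other Prss genes work outside the testis, in the pancreas, in blood cells, in epithelia or in the nervous system.

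Library depth was 38521519 to 39368277 reads for Ccdc117ko and 35791616 to 43461692 reads for WT. Ccdc117 itself had 3478, 3772 and 3908 normalized counts in the Ccdc117ko libraries, against 3657, 3826 and 3931 in the WT libraries (log2 fold change -0.03, SE 0.05, limma adjusted p = 0.714). The level of Ccdc117 thus did not separate the labels, a small deletion need not show in it, and the genotype could not be checked. Directions in the text go by the labels. On the first principal component (32.9% of variance), the 3 Ccdc117ko libraries lay at -35.1 to -19.2, against 17.3 to 33.8 for the 3 WT libraries. A gene was called when its limma p-value, Benjamini-Hochberg adjusted over the 22878 genes averaging 10 or more normalized counts, was under 0.05. A normalized count is a read count scaled for depth and is not divided by gene length.

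Promoter sequences are shown for genes on which the results turn: Prss54, Prss46 and Prss56, which changed, and Prss39 and Prss40, which lie near each other on chromosome 1 and had nearly the same fold change. Each is the 150 bases before a RefSeq transcript start on GRCm38.p6, 5′ to 3′ on the strand of the gene. The Prss54 stretch lies inside the gene as annotated in GENCODE (chr8:95559069-95576340), so the bases before that outer start are not shown. Capitals mark the MYB core, AACNG on either strand, the motif bound by MYBL1, a transcription factor of meiotic spermatocytes. The printed stretches of Prss54 and Prss56 hold none, but both genes have it farther upstream, within the 250 bases searched.
Prss54, chr8:95575608-95575757, minus strand: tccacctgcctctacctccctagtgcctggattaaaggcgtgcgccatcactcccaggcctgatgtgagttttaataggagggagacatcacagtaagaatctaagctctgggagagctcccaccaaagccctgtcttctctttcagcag
Prss46, chr9:110844356-110844505, plus strand: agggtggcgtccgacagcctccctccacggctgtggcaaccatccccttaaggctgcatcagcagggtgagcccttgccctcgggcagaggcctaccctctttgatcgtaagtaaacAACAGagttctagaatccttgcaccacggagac
Prss56, chr1:87183164-87183313, plus strand: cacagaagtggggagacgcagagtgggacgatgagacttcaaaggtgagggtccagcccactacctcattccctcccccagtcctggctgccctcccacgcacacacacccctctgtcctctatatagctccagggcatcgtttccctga
Prss39, chr1:34498262-34498411, plus strand: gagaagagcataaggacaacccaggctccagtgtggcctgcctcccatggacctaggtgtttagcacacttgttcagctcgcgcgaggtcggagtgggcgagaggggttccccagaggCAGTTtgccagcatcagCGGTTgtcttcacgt
Prss40, chr1:34560944-34561093, minus strand: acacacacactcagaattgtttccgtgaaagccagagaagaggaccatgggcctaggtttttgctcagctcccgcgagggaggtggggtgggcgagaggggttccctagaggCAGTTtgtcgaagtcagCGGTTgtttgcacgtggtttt

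The Prss39 and Prss40 stretches were the most alike of the Prss promoters. Aligned end to end they shared 107 identical bases over 172 columns, an identity of 62.2%, against a median of 49.3% over the 276 pairs of the 24 Prss genes with a RefSeq promoter. Both hold a pair of MYB cores at the same spacing, starting 32 and 15 bases before the start in Prss39 and 38 and 21 bases before it in Prss40. Over the full windows of 250 bases before a start, the MYB core stood in 25 of 31 Prss windows (80.65%), and in 74.2% of all 32851 windows. The cyclic AMP response element TGACGTCA, searched on both strands, stood in 0 Prss windows and in 1.55% of all windows, and its half-site TGACG stood in 7 of 31 Prss windows, against 17.8% of all. That half-site lies inside the full element, and the 7 windows belonged to 3 genes, as Prss23 has several starts. The exact letters TATAAA of the TATA box, on either strand and at any place, stood in 1 Prss window, that of Prss2, and in 12.4% of all windows. Variants of the TATA box were not searched for.

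The Prss genes covered a wide range of levels in testis, and a few of them held a large share of the Prss counts. All 34 rows together took 0.136% to 0.142% of the reads in the Ccdc117ko libraries, against 0.134% to 0.138% in the WT libraries. The 3 highest, Prss39, Prss37 and either Prss54 or Prss55, made 43.5% to 44.5% of the summed Prss counts in the Ccdc117ko libraries, and 43.3% to 44.6% in the WT libraries. A mean of at least 1000 normalized counts was reached by 15 rows, and 28 rows reached the mean of 10 needed for testing. Per kilobase of the longest annotated transcript, Prss39 led with a mean level of 9556 normalized counts over the 6 libraries, followed by Prss37 with 6220.1 and Prss55 with 4475. Prss54 had a level of 2942 per kilobase, Prss46 2384, Prss43 524 and Prss56 409.6, while Prss12, Prss33 and Prss8 had 11.5, 10.3 and 6.35.

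Of the 28 tested rows, 3 rose in the libraries labelled Ccdc117ko, 2 fell and 23 were not called. Only Prss54 and Prss56 were called under every alternative tried: the 5 calls became 3 when genes down to a mean of 0.5 were tested, 2 without Ccdc117ko replicate 2 or WT replicate 3, 3 without WT replicate 2 and 8 without WT replicate 1. The 5 calls are 17.9% of the tested rows, near the 16.6% called among all tested genes (8.35% higher and 8.25% lower). The median log2 fold change of the 28 was 0.06 and that of all tested genes -0.01. The 3 values of each genotype did not overlap for 13 of the 28 (8 higher and 5 lower), 46.4%, beside 34.5% of all tested genes. The filter of 10 was applied to the mean over both genotypes, and 6 rows under it have values but no test. In whole testis, fewer cells of a type and less RNA per cell cannot be told apart.

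**Figure D1:**
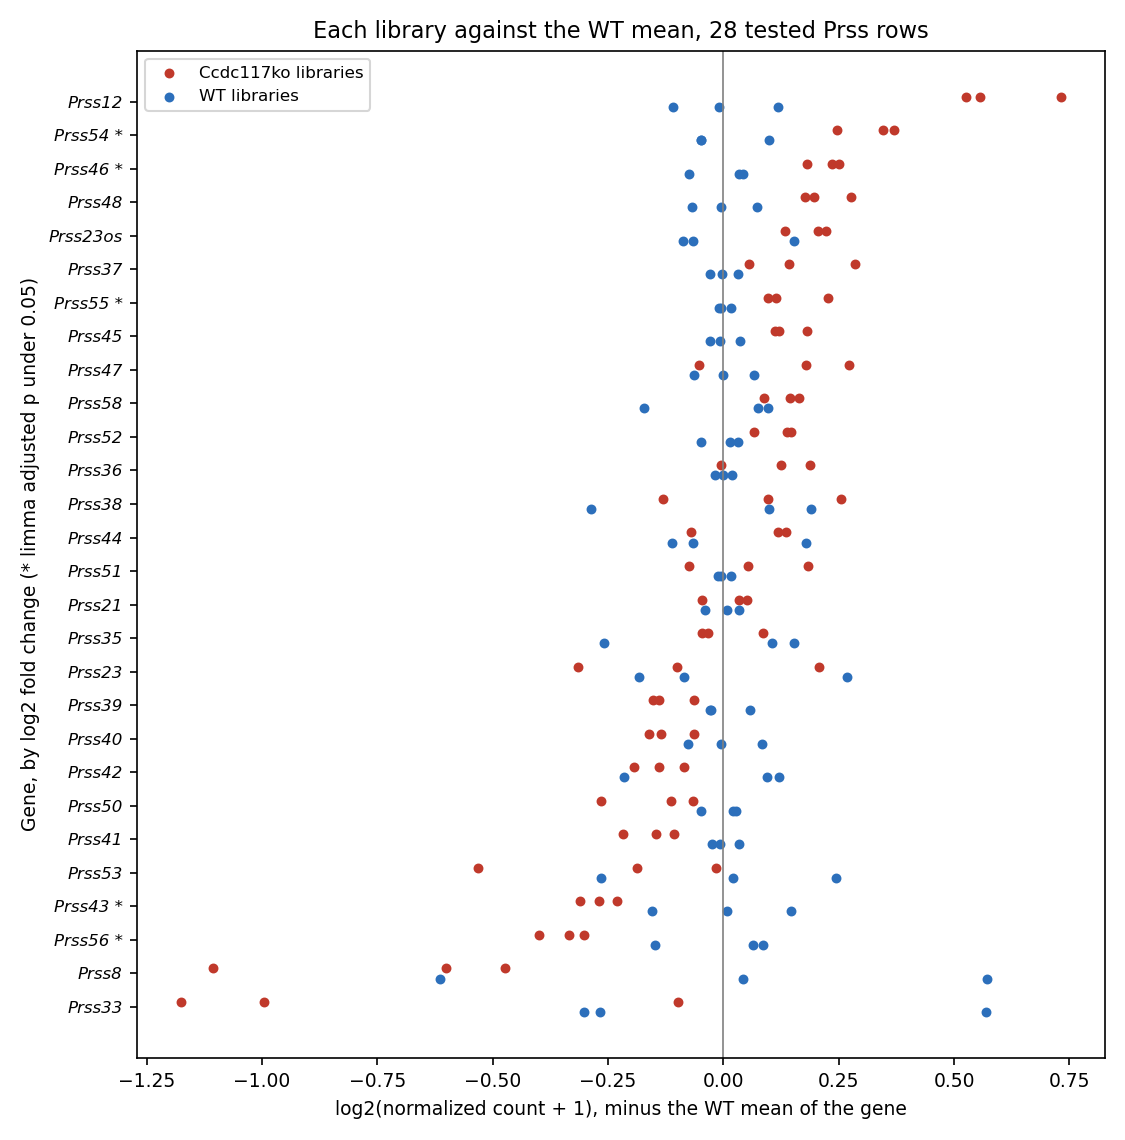
Each of the 28 tested Prss rows on the vertical axis, ordered by log2 fold change, with log2(normalized count + 1) of each library minus the WT mean of that gene on the horizontal axis; red points are the 3 Ccdc117ko libraries, blue points the 3 WT libraries, and an asterisk marks a limma adjusted p under 0.05. The called Prss54, Prss46 and Prss55 have all red points right of the blue ones, and Prss56 and Prss43 have them all left. Prss8 and Prss33, the rows with the fewest reads, spread widest within each genotype. Prss12, not called, has its red points right of its blue ones.

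Among the 9 genes of the sperm surface and acrosome, Prss54 and Prss55 rose, none fell and 7 were not called. Their median log2 fold change was 0.05, and the called share was 22.2%, beside 16.6% of all tested genes. PRSS54 is an inactive serine protease of the sperm head, and mice without it have misshapen acrosomes. Prss54 (ENSMUSG00000048400) is a minus-strand gene at chr8:95559069-95576340 (mm10). It had 5256, 5720.1 and 5626 normalized counts in the Ccdc117ko libraries, against 4740.2, 4281.5 and 4283 in the WT libraries. The lowest Ccdc117ko library stood above the highest WT library, and WT replicate 1 was the nearest to the Ccdc117ko values. Ccdc117ko averaged 5534 ± 246 and WT 4435 ± 265 (SD, n = 3 each), which on the log2 scale was a fold change of 0.32 (SE 0.05, limma adjusted p = 0.00242). The call of Prss54 held whichever library was left out (adjusted p at most 0.0181) and when transcript length and GC content were corrected for (0.29, adjusted p = 0.00348).

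PRSS55 is held on the sperm surface by a lipid anchor, and mouse sperm without it fail to pass into the oviduct and lack mature ADAM3. Prss55 had 5339.6, 4879.7 and 4933.1 normalized counts in the Ccdc117ko libraries, against 4612.2, 4542.5 and 4528.3 in the WT libraries. The groups did not overlap, and Ccdc117ko replicate 1 stood above the rest. Ccdc117ko averaged 5051 ± 252 and WT 4561 ± 44.9 (SD, n = 3 each), which on the log2 scale was a fold change of 0.15 (SE 0.05, limma adjusted p = 0.0483). The Prss55 call was lost without any of Ccdc117ko replicates 1, 2 and 3 (adjusted p = 0.191, 0.0773 and 0.0742) or WT replicates 2 and 3 (0.113 and 0.128). With length and GC corrected its log2 fold change was 0.06 (adjusted p = 0.435), and with genes down to a mean of 0.5 tested its adjusted p was 0.0876.

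PRSS37, which lacks catalytic residues, is likewise needed in mice for mature ADAM3 and for passage into the oviduct. Prss37 had 6795, 7494 and 6397 normalized counts in the Ccdc117ko libraries, against 6142, 6034 and 6286 in the WT libraries. All 3 Ccdc117ko libraries stood above the WT ones, and replicate 3 did so narrowly. The log2 fold change was 0.16 (SE 0.05, limma adjusted p = 0.0596), not called here, while the authors' deposited table gives Prss37 an FDR of 0.0151. It was called without Ccdc117ko replicate 3 (0.21, adjusted p = 0.0302), without Ccdc117ko replicate 2, its highest library, it had 0.10 (adjusted p = 0.264), and with length and GC corrected its log2 fold change was 0.06 (adjusted p = 0.528).

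Prss39 and Prss40 encode the acrosomal proteins TESP1 and TESP2, and lie 40.9 kb apart on chromosome 1 on opposite strands. Prss39, the Prss gene of highest level, had 12046, 11440.2 and 11341.5 normalized counts in the Ccdc117ko libraries, against 12344, 12358 and 13110.3 in the WT libraries. Each Ccdc117ko value was under each WT value. Prss40 had 2126, 1989 and 2024 normalized counts in the Ccdc117ko libraries, against 2106, 2214 and 2356 in the WT libraries, and the groups overlapped.

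The log2 fold changes of the TESP genes were -0.12 for Prss39 (SE 0.04, limma adjusted p = 0.0709) and -0.12 for Prss40 (SE 0.06, adjusted p = 0.166), neither called. The ratio of Prss39 to Prss40 counts, which does not depend on depth scaling, was 5.605 to 5.75 in the Ccdc117ko libraries, against 5.57 to 5.86 in the WT libraries. The authors' deposited table lists Prss39 with an FDR of 0.0248. That table also gives each of the 5 Prss genes called here an FDR under 0.05. Prss39 was called lower without WT replicate 1 (-0.13, adjusted p = 0.0491) and with length and GC corrected (-0.19, adjusted p = 0.0113). Exons of Prss40 overlap Cfc1 on the other strand, and 15.3% of its 50-base words are found in another gene. The use of strand in counting is not given in the sources used here, so reads of genes that overlap on opposite strands cannot be told apart.

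The remaining genes of the sperm surface and acrosome list were not called. Prss21 encodes testisin, a lipid-anchored protease that aids sperm maturation in the mouse epididymis. It had 2809, 2772 and 2625 normalized counts in the Ccdc117ko libraries, against 2636, 2723 and 2772 in the WT libraries, and the groups overlapped fully (log2 fold change 0.01, SE 0.05, limma adjusted p = 0.891). Prss52 had 2866, 2886 and 2730.1 normalized counts in the Ccdc117ko libraries, against 2522, 2666 and 2635 in the WT libraries. Its groups did not overlap, with a log2 fold change of 0.12 (SE 0.05, limma adjusted p = 0.122), and 0.02 with length and GC corrected.

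Prss51, Prss52 and Prss55 lie side by side on chromosome 14, with the bodies of Prss51 and Prss55 overlapping on opposite strands but with no shared exon base. Prss51 had 1344 to 1608 normalized counts in the Ccdc117ko libraries, against 1403 to 1432.5 in the WT libraries (log2 fold change 0.05, SE 0.07, limma adjusted p = 0.628; -0.04 with length and GC corrected). Prss41, which encodes the membrane protease TESSP1 of mouse testis, had 237 to 256 in the Ccdc117ko libraries, against 271 to 282 in the WT libraries, a log2 fold change of -0.16 (SE 0.09, limma adjusted p = 0.277). Exons of Prss41 overlap Prss32 on the other strand.

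**Figure D2:**
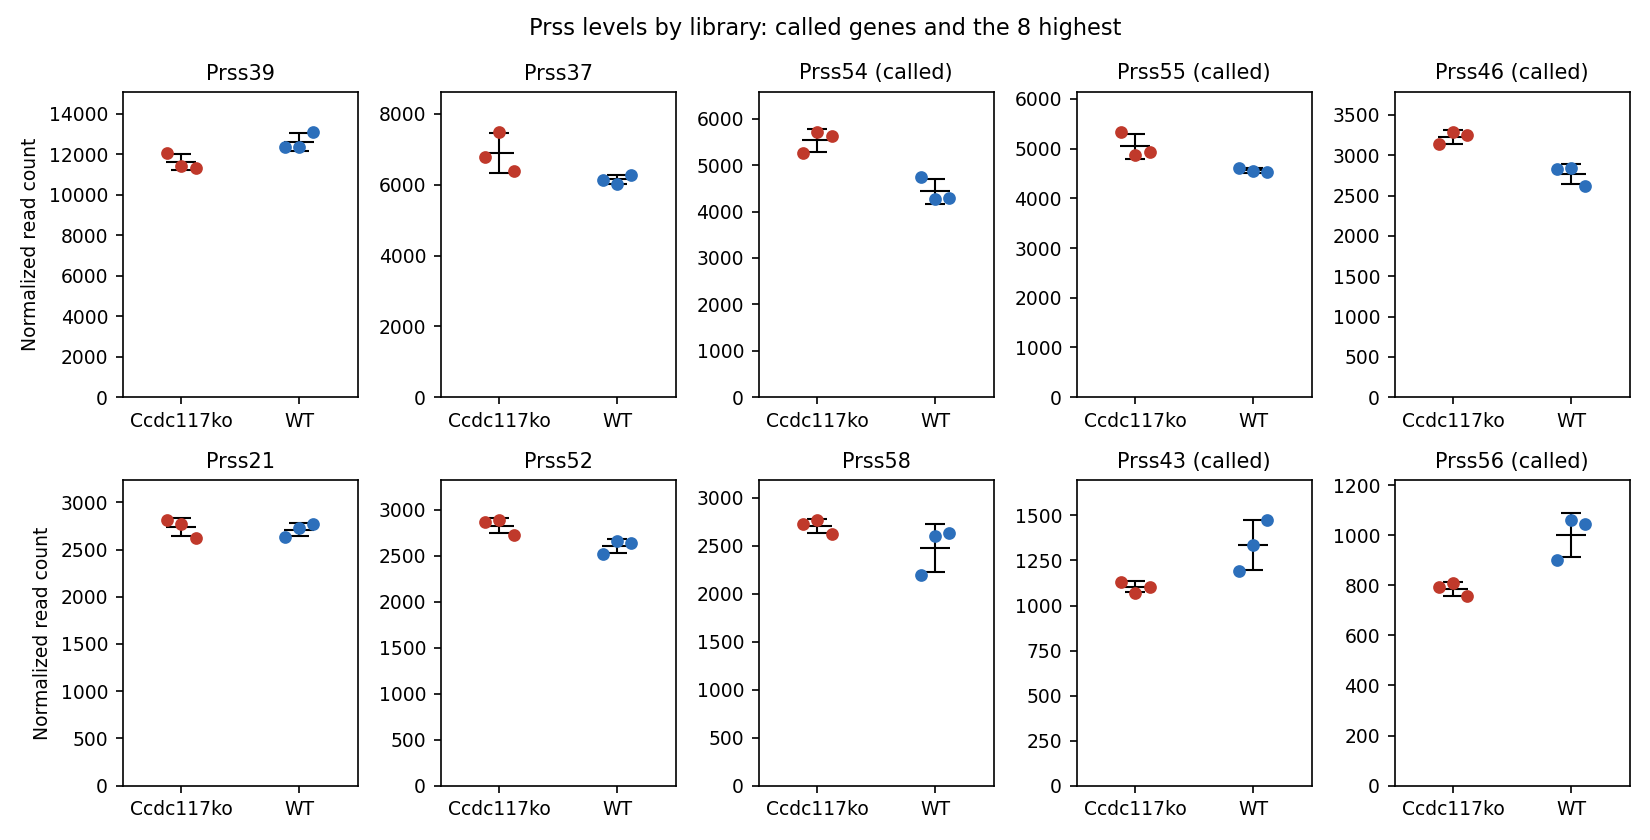
Normalized read counts (vertical axes, from 0) in the 3 Ccdc117ko libraries (red) and the 3 WT libraries (blue) for the 5 called Prss genes and the 8 Prss genes of highest mean level, with mean and SD as black bars. Prss54 averaged 5534 in Ccdc117ko against 4435 in WT with no overlap, and Prss56 785 against 1001, while the points of Prss21 lie at the same level in both genotypes.

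Within the gene cluster on chromosome 9, 1 gene rose and 1 fell. Prss42, Prss44, Prss43, Prss45, Prss46 and Prss50 lie in this order on the plus strand within 66.5 kb (110798166 to 110864629), with gaps of 1.44 to 10.2 kb. PRSS42 and PRSS43 have been tied to the survival of mouse spermatocytes through meiosis. Of the 6, Prss46 rose, Prss43 fell and 4 were not called, with a median log2 fold change of -0.04. The called share was 33.3% of only 6 genes, beside 16.6% of all tested genes. The summed counts of the 6 were 10067 to 10300.4 normalized counts in the Ccdc117ko libraries, against 9615 to 10405 in the WT libraries, which overlap.

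Prss46 had 3135, 3290.4 and 3255 normalized counts in the Ccdc117ko libraries, against 2829, 2846 and 2624 in the WT libraries. The groups did not overlap, with averages of 3227 ± 81.5 in Ccdc117ko and 2766 ± 124 in WT (SD, n = 3 each). The log2 fold change was 0.22 (SE 0.05, limma adjusted p = 0.0104). This call was lost without Ccdc117ko replicate 2 (adjusted p = 0.0558) or WT replicate 3 (0.0506) and with length and GC corrected (0.15, adjusted p = 0.051).

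Prss43 had 1133, 1072 and 1104 normalized counts in the Ccdc117ko libraries, against 1194, 1337.5 and 1473 in the WT libraries. Its WT values spread more than its Ccdc117ko values, and the lowest WT library, replicate 1, stood just above the highest Ccdc117ko library. Ccdc117ko averaged 1103 ± 30.6 and WT 1335 ± 139.7 (SD, n = 3 each), which on the log2 scale was a fold change of -0.27 (SE 0.07, limma adjusted p = 0.0261). The call was lost without Ccdc117ko replicates 2 or 3 (adjusted p = 0.0994 and 0.0698) or WT replicates 2 or 3 (0.0716 and 0.114), and with genes down to a mean of 0.5 tested (0.0787); with length and GC corrected it was kept (-0.25, adjusted p = 0.0421).

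The count ratio of Prss46 to Prss43, a comparison chosen after their values were seen, was 2.77, 3.07 and 2.95 in the Ccdc117ko libraries, against 2.37, 2.13 and 1.78 in the WT libraries. Since Prss46 was higher and Prss43 lower in every Ccdc117ko library, the ratio had to separate the labels, and it adds nothing to those calls. Prss45, which lies between them, had 1689.9 to 1772 normalized counts in the Ccdc117ko libraries, against 1533 to 1604 in the WT libraries (log2 fold change 0.14, SE 0.05, limma adjusted p = 0.0922; 0.07 with length and GC corrected). Prss44 overlapped fully between the genotypes (0.06, SE 0.08, adjusted p = 0.669).

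At the ends of the cluster, Prss42 had 1779.7 to 1921 normalized counts in the Ccdc117ko libraries, against 1755 to 2216 in the WT libraries (-0.14, SE 0.08, limma adjusted p = 0.257). WT replicate 1 was the low value, and without it Prss42 was called lower (-0.25, adjusted p = 0.00922). Without WT replicate 2 it had -0.09 (adjusted p = 0.538), and without WT replicate 3 -0.08 (0.607). Prss50, whose product carries a threonine in place of the active serine, had 1115 to 1280.4 normalized counts in the Ccdc117ko libraries, against 1296 to 1365 in the WT libraries (-0.15, SE 0.06, limma adjusted p = 0.138). It was called lower with length and GC corrected (-0.19, adjusted p = 0.0464), but not with the replicate number as a block in that fit (adjusted p = 0.0824), and it had -0.09 without Ccdc117ko replicate 3 (adjusted p = 0.404). Beyond the cluster, within 50 kb, Tmie had a change of -0.34 on the log2 scale (limma adjusted p = 0.115) and Als2cl -0.01 (0.98), neither called.

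**Figure D3:**
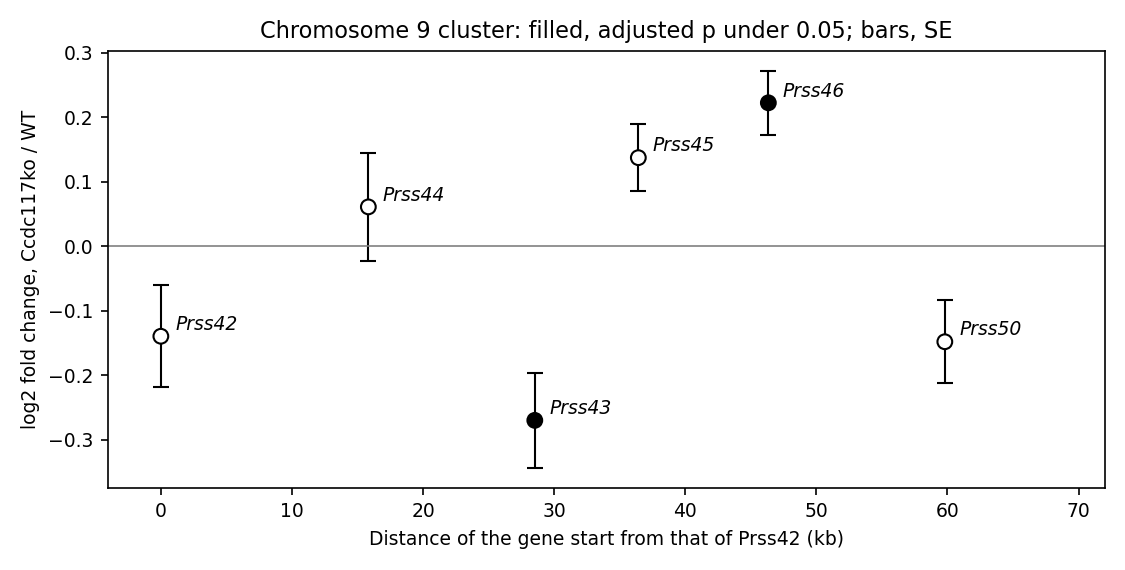
Log2 fold change of Ccdc117ko over WT (vertical axis, bars are standard errors) against the distance in kb of each gene start from that of Prss42 (horizontal axis) for the 6 genes of the chromosome 9 cluster, with filled points for an adjusted p under 0.05. Prss43 at -0.27 stands between Prss44 at 0.06 and Prss45 at 0.14, and Prss46 at 0.22 is followed by Prss50 at -0.15.

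Of the 12 tested genes outside these groups, Prss56 fell, none rose and 11 were not called. This was 8.33%, beside 16.6% of all tested genes. PRSS56 is known for its part in eye growth in mice and for its expression in Müller glia of the retina. Prss56 had 791.5, 809 and 756 normalized counts in the Ccdc117ko libraries, against 899.6, 1059 and 1043 in the WT libraries. No Ccdc117ko value reached the lowest WT value, that of replicate 1. Ccdc117ko averaged 785 ± 27.0 and WT 1001 ± 87.8 (SD, n = 3 each), which on the log2 scale was a fold change of -0.35 (SE 0.07, limma adjusted p = 0.00834). The call held without each library in turn (adjusted p at most 0.0394) and with length and GC corrected (-0.33, adjusted p = 0.011).

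Prss58, a trypsin-like gene of chromosome 6 with a level like that of Prss52, had 2727, 2765 and 2623 normalized counts in the Ccdc117ko libraries, against 2191, 2601 and 2638 in the WT libraries. WT replicate 1 stood apart below the other 5 libraries (log2 fold change 0.13, SE 0.07, limma adjusted p = 0.205). Without that library Prss58 had 0.05 (adjusted p = 0.584), and with length and GC corrected 0.01 (0.936). Prss47 and Prss48 had log2 fold changes of 0.13 (adjusted p = 0.337) and 0.22 (0.114), and Prss48 had 336 to 359.8 normalized counts in the Ccdc117ko libraries, against 283 to 313 in the WT libraries. The log2 fold change of Prss38 was 0.07 (adjusted p = 0.771).

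Several Prss genes known from somatic tissues were not called. Prss35, an inactive protease known from the ovary, had a mean of 394 ± 20.2 normalized counts in the Ccdc117ko libraries and 396 ± 59.3 in the WT libraries (SD, n = 3 each), and its log2 fold change was 0.00 (SE 0.11, limma adjusted p = 0.993). Prss36, a polyserase with several protease domains in its product, had 137 ± 9.36 in Ccdc117ko and 127 ± 1.68 in WT (SD, n = 3 each; log2 fold change 0.10, adjusted p = 0.623). Prss23, a secreted protease, had 121 ± 22.4 in Ccdc117ko and 127 ± 21.7 in WT (log2 fold change -0.07, adjusted p = 0.819).

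Prss23os, on the strand opposite Prss23, had a higher mean level per kilobase than Prss23 (508 against 38.3 normalized counts), at 736 ± 24.1 normalized counts in the Ccdc117ko libraries and 648 ± 61.2 in the WT libraries (SD, n = 3 each; log2 fold change 0.19, limma adjusted p = 0.124). It was called higher without WT replicate 1 (0.26, adjusted p = 0.0256). Words of 50 bases were compared on both strands, and 62.2% of those of Prss23os were found in another gene, Prss23 above all. Whether counting used the strand is not given, so the counts of Prss23os and Prss23 are uncertain.

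Prss12 encodes neurotrypsin, which cuts agrin at synapses, and had 35.0, 39.6 and 34.3 normalized counts in the Ccdc117ko libraries, against 21.7, 23.3 and 25.6 in the WT libraries. The groups did not overlap, but at this depth the log2 fold change of 0.60 (SE 0.24) did not pass (limma adjusted p = 0.103). Prss8, which encodes prostasin, an activator of the epithelial sodium channel, had 6.10 to 9.99 normalized counts in the Ccdc117ko libraries, against 8.97 to 21.7 in the WT libraries. Prss33 had 7.05 to 15.99 in the Ccdc117ko libraries, against 13.8 to 26.01 in the WT libraries. Their log2 fold changes of -0.73 (SE 0.42, limma adjusted p = 0.273) and -0.76 (SE 0.42, 0.243) were the farthest below 0 of the 28 and were not called. The log2 fold change of Prss53 was -0.24 (adjusted p = 0.545), and the gene shares 81.3% of its 50-base words with others, mainly the overlapping Gm21974, so its counts are uncertain.

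The 6 rows under the test filter had few reads. Prss16, which encodes a thymus protease of another serine protease family, had 8, 11 and 8 reads in the Ccdc117ko libraries, against 0, 9 and 5 in the WT libraries. Prss2, a digestive trypsin, had 5, 0 and 7 reads in the Ccdc117ko libraries, against 3, 4 and 5 in the WT libraries, and Prss32 had 23 reads under each label. Prss22 had no read in the Ccdc117ko libraries, against 2, 0 and 3 in the WT libraries. Prss34, a leukocyte protease, had none in the Ccdc117ko libraries and 3 reads in WT replicate 1, and Prss30 had none in the Ccdc117ko libraries and 2 reads in WT replicate 2. A count of 0 in a library still allows 3 reads, which covers counting error only, so a difference in these 3 genes was not detectable at this depth.

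Fold changes followed transcript length, and the Prss genes are short, with a median longest transcript of 1520.0 bases over the 28 rows, against 2547 over all tested genes. Between the length of the longest transcript and the log2 fold change, Spearman's rho was -0.342 across 16652 protein-coding genes and -0.412 across the 28 Prss rows, given as descriptions since genes share the same libraries. Protein-coding genes with transcripts under 1100 bases had a median log2 fold change of 0.13, and the 6 Prss rows of that length 0.14. From 1100 to under 1500 bases the medians were 0.09 for all and 0.10 for 8 Prss rows, and from 1500 to under 2000 bases 0.04 for all and -0.12 for 7 Prss rows. From 2000 to under 3500 bases the medians were -0.02 for all and -0.07 for 7 Prss rows. Each log2 level was also taken as a deviation from the mean of its gene over the 6 libraries. Per doubling of length this deviation changed by -0.042, -0.058 and -0.025 in the Ccdc117ko libraries, against 0.044, 0.021 and 0.059 in the WT libraries. Slopes of such deviations must balance out over the libraries, so only the difference between the genotypes is informative. The slopes of the genotypes did not overlap, and the source of the slope was not tested. Over all genes the correction gave 1875 called higher and 918 called lower, against 1911 and 1887 without it. After it, 1 Prss gene was called higher, Prss54, and 4 lower, Prss56, Prss43, Prss39 and Prss50, and the median log2 fold change of the 28 was 0.01.

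**Figure D4:**
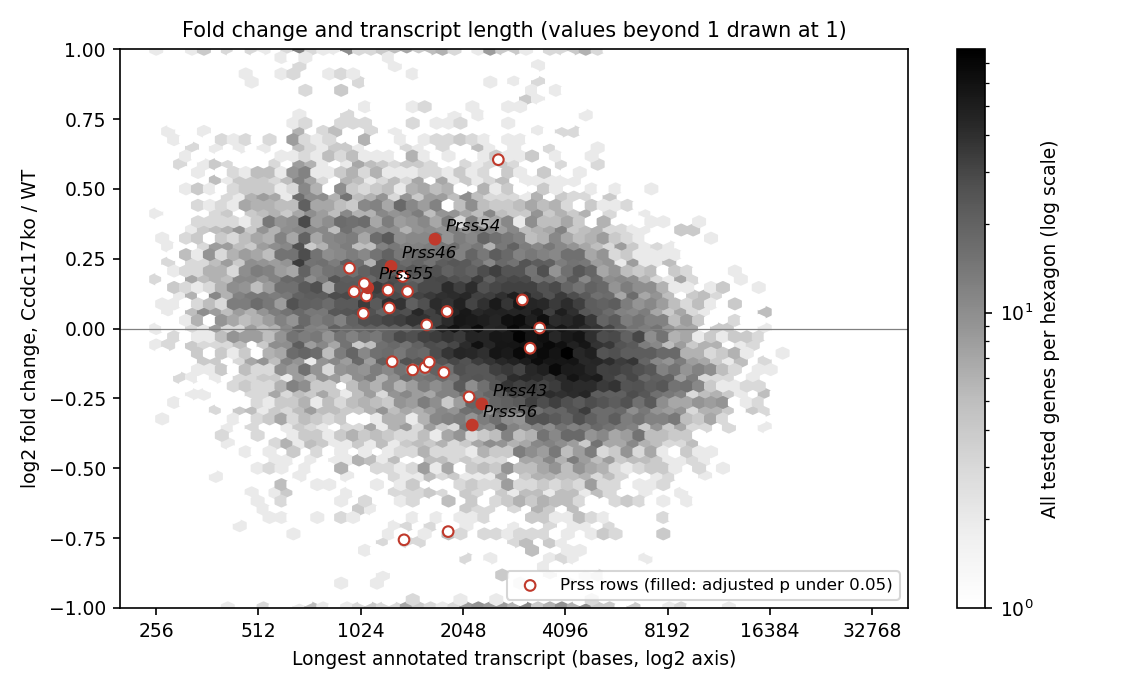
Log2 fold change of Ccdc117ko over WT (vertical axis, values beyond 1 drawn at 1) against longest transcript length in bases (horizontal axis, log2 scale), with all tested genes as grey hexagons (darker for more genes) and the 28 Prss rows as red circles, filled where the adjusted p was under 0.05. The grey cloud slopes downward with length, and Prss55 lies in its middle at 0.15. Prss54 lies above its middle at 0.32, while Prss43 and Prss56 lie below its middle at -0.27 and -0.35. Other genes of the cloud lie beyond these values on both sides.

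Other proteases and partners of sperm gave a background for the family, read beside the 16.6% called among all tested genes. Of 8 genes of a list named for acrosin and other sperm proteases, their binding proteins and inhibitors, which also holds other sperm proteins such as Zp3r and Spam1, 5 rose, none fell and 3 were not called (median log2 fold change 0.19). Acr, the gene of acrosin, the main acrosomal protease, had 9563 ± 128 normalized counts in the Ccdc117ko libraries and 8319 ± 124 in the WT libraries (SD, n = 3 each), and its log2 level rose by 0.20 (limma adjusted p = 0.00446). Pcsk4, a proprotein convertase of sperm, had 11282 ± 180.3 in Ccdc117ko and 9315 ± 108 in WT (0.28, adjusted p = 0.00098), Zp3r, an acrosomal protein that binds the zona, rose by 0.30 on the log2 scale (adjusted p = 0.00571), and Spink2, an inhibitor of acrosin, rose by 0.18 (adjusted p = 0.0145). The fifth, Spam1, a sperm hyaluronidase named after its value was seen, rose by 0.34 (adjusted p = 0.00635). With length and GC corrected Spink2 had 0.04 (adjusted p = 0.634).

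Of 18 genes other than Prss on a list named for sperm ADAM3 or oviduct passage in mice, 4 rose, 1 fell and 13 were not called (median log2 fold change 0.07). A place on this list does not mean that a gene is needed for either. The called share was 27.8%, beside 16.6% of all tested genes. In log2 units, Pdilt, a testis chaperone of the disulfide isomerase family, rose by 0.28 (limma adjusted p = 0.00781), Adam6b by 0.23 (0.0144) and Calr3, a testis calreticulin, by 0.17 (0.0347), while Adam1b fell by 0.21 (0.0104). With length and GC corrected, Calr3 (0.14, adjusted p = 0.0868) and Adam1b (-0.14, adjusted p = 0.059) were not called.

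Markers of germ cell stages moved with genotype, and their part in the Prss results was not tested. Among all tested genes 16.6% were called. Of 10 round spermatid markers all 10 rose (median log2 fold change 0.34), among them Tssk2, Tssk1, Crem and Zpbp at 0.14, 0.23, 0.24 and 0.14, and their summed level was 86443 to 90925 normalized counts in the Ccdc117ko libraries, against 70839.7 to 77474 in the WT libraries. Of 10 pachytene spermatocyte markers Cdc25c rose (0.31), Piwil1 and Mybl1 fell (-0.17 and -0.37) and 7 were not called (median 0.03), with summed levels of 358448 to 364202 in Ccdc117ko and 332311 to 350833 in WT. Of 10 elongating spermatid markers Oaz3, Odf1 and Hils1 rose (0.17, 0.15 and 0.28), Akap4 fell (-0.13) and 6 were not called (median 0.10, summed levels 787793 to 825569 in Ccdc117ko and 751353 to 807403 in WT). Of 8 spermatogonial markers none rose and Dazl, Etv5, Kit and Zbtb16 fell (-0.36, -0.44, -0.52 and -0.43; median -0.33, summed levels 7925 to 8511 in Ccdc117ko and 9872 to 10667 in WT). With length and GC corrected, the calls of Tssk2 (0.08, adjusted p = 0.168), Piwil1 (-0.07, 0.286), Odf1 (0.07, 0.276), Akap4 (-0.10, 0.0672) and Zbtb16 (-0.30, 0.154) were lost, and the median of the elongating spermatid list, whose median transcript has 862.5 bases, was -0.01. No listed marker with a row was at 0 in all 6 libraries, and the listed somatic markers Mcpt4, S100a8, Tpsb2, Lcn5 and Ovch2 had no row.

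Somatic markers also moved, beside the 16.6% called among all tested genes. Of 8 Sertoli cell markers none rose and 6 fell, Cldn11, Wt1, Gata4 and Inhbb by 0.20, 0.27, 0.24 and 0.38 on the log2 scale (median -0.26, summed levels 7951 to 8524 in the Ccdc117ko libraries, against 9691 to 9834 in the WT libraries). Of 7 Leydig cell markers 4 rose, Insl3 (0.24), Cyp17a1 (0.47), Hsd3b6 (0.86) and Star (1.23), and 2 fell, Hsd3b1 (-0.90) and Lhcgr (-0.41), named after their values were seen (summed levels 78429 to 91258 in Ccdc117ko and 65947 to 76384 in WT). Of 7 leukocyte markers with a row, 5 were tested, and Mrc1 and Cd68 fell (-0.28 and -0.49; summed levels 1384 to 1602 in Ccdc117ko and 1767 to 1864 in WT). The 4 tested pancreatic markers were not called, with Try5 at -0.04, Cela2a at -0.07 and the lowest unadjusted limma p, that of Cela3b, at 0.209 (summed levels 193 to 254 in Ccdc117ko and 205 to 242 in WT). The 2 tested epididymal markers were not called, with Rnase10 at -0.37 and Spink8 at 0.39 (summed levels 142 to 183 in Ccdc117ko and 173 to 196 in WT). With length and GC corrected, the calls of Insl3 (0.13, adjusted p = 0.194), Gata4 (-0.17, 0.0668) and Mrc1 (-0.19, 0.0705) were lost. Before adjustment, Rnase10 had a limma p of 0.0266 and Spink8 one of 0.251.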

How the data were processed

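Per the labels' protocols, testis RNA was extracted with TRIzol, treated with DNase and made into stranded mRNA libraries for Illumina sequencing; STAR, DESeq2 and mm10 are listed, per the submitters' processing notes, with no version or role. The authors deposited 1 table with a log2 value per library and gene, read here from the values as log2(normalized count + 1). With the log2 undone and 1 subtracted, 100% of values under 500 reads were whole multiples of 1 step per library within 0.01, which gave whole reads. The deposited p-values and FDR, whose test the authors' file headers do not state, were used only where credited.

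Genotype was tested by limma-trend (limma 3.58.1, R 4.3.3, two-sided) on the deposited log2 values of the 22878 genes averaging 10 or more normalized counts. Fold changes keep the deposited scale, log2(normalized count + 1). Transcript length, GC and coordinates came from GENCODE M21 (mm10), which matched 36551 rows; promoters came from RefSeq (GRCm38.p6), which matched 24 of the 34 Prss rows. The length and GC correction removed natural splines of both from each library. Members, lists and the filter were chosen with earlier results of these data known: a fit down to a mean of 0.5 had lost most calls without single libraries. The rule names every member, with library values for called members, the 8 of highest level and those at 0 in 1 genotype, and up to 4 called or 2 highest genes of each list. The lists were the sperm protease, ADAM3, spermatogonial, pachytene, round and elongating spermatid, Leydig, Sertoli, leukocyte, pancreatic and epididymal ones.

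On simulated reads for these 22878 genes, limma recovered 1.2% of changes of 1.1-fold, 44.8% of 1.25-fold and 72.0% of 1.5-fold. The mean number of false calls was 4.8. The simulation changed far fewer genes than were called here, which makes the adjusted threshold stricter, and gave all genes the same spread setting. The tested Prss rows had a median level of 1129 normalized counts, against 289 over all tested genes. The shares recovered therefore do not say how readily a Prss change would be called. Replicates of a genotype differed by more than sampling noise (chi-square per degree of freedom 4.43 to 7.00). Same-numbered libraries of the 2 genotypes had deviations from the group means that correlated at -0.00 to 0.01.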

Additional observations from a re-analysis of the deposited data

How the results depend on the processing

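Of 420 values recomputed for the 28 tested Prss rows (15 alternatives each), 379 kept their direction and side of the threshold, 20 lost the call, 8 gained one and 13 changed sign. For 38 other named genes, 464 of 570 were kept, 97 lost the call and 9 changed sign. All genes gave 3798 calls (1911 higher, 1887 lower), against 2219 (1204 and 1015) with no filter on low values, 2228 (1212 and 1016) with a mean of at least 0.5, and 1714 to 4021 (936 to 2041 and 778 to 1980) when each library was left out in turn, lowest without Ccdc117ko replicate 2 and highest without WT replicate 1. The length and GC correction gave 918 lower, and with the replicate block 2370 in all and 770 lower. Prss calls numbered 3 (1 lower) under both looser filters and 2 to 8 without single libraries (1 to 4 higher, 1 to 4 lower), lowest without Ccdc117ko replicate 2 or WT replicate 3 and highest without WT replicate 1; the length and GC correction gave 1 higher and 4 lower, and with the block 1 higher and 3 lower. The replicate block alone gave 3579 calls over all genes; same-numbered libraries shared only a number, and Prss55 then had an adjusted p of 0.0519. Signs turned with length and GC corrected for Prss21 (-0.027), Prss51 (-0.035) and Ccdc117 (0.024), with or without the block, and when single libraries were left out, over ranges of -0.0070 to 0.042 for Prss21, -0.010 to 0.12 for Prss51, -0.13 to 0.079 for Prss35, -0.070 to 0.18 for Prss38, -0.21 to 0.064 for Prss23, -0.10 to 0.068 for Try5, -0.43 to 0.18 for Cela2a and -0.070 to 0.014 for Ccdc117; none of these was called, and the cause was not tested. The looser filters test more genes of few reads. Limma-voom on whole reads, chosen after seeing the data, gave 1919 higher and 1870 lower; it stood in for edgeR and DESeq2, which had been planned for recovered reads and were not run.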
